A study of Mus musculus with 24 samples.

Results

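The tip of the mouse jejunal villus (zone V6) was compared with the middle of the same villi (zone V4), over all genes. Both zones come from 4 male C57BL/6 mice aged 10 weeks and fed regular chow, and none carried a treatment or an engineered allele. Epithelium of the jejunum was released with EDTA, stained with antibodies to CD73 and CD26 and sorted by FACS. Each mouse gave 1 bulk library per zone from V1 (the most bottom) to V6 (the tip). The 4 libraries of V6 and the 4 of V4, paired by the mouse, are 8 of the 24 libraries of the study. A further 4 libraries each of V5 (middle-tip), V2 (bottom) and V1 of the same mice stand beside them where a step or a level is placed along the axis. The libraries count the 3-prime ends of polyadenylated RNA with unique molecular identifiers (UMIs, 1 per molecule), and held 806541 to 1822822 UMIs in V4 and 1274084 to 1989404 in V6. Of 17811 gene identifiers, 9328 had enough counts to be tested. Levels are CPM after TMM scaling, which sets the libraries to a common scale from the bulk of their genes. Changes are log2 differences V6 minus V4 ± SE from a model with mouse as a block.

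Villus cells are born in the crypt, move up the villus within days and are shed at the tip. Enterocytes take up nutrients on the way, and near the tip they are known to switch on genes of purine breakdown, cell adhesion and immune modulation. Enteroendocrine cells, a rare hormone-making lineage of the same epithelium, ride the same path and are known to change the hormones they make as they go, from one set near the crypt to another toward the tip.

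The 2 proteins used for the sort serve to check the labels and are no finding. Nt5e, the gene of CD73, had 48.8, 8.94, 40.2 and 27.2 CPM in V4 of mice 1 to 4 and 446, 186, 296 and 148 CPM in V6. It was thus higher at the tip in every mouse, with no overlap. CD26 is encoded by Dpp4, which had 504 ± 27.9 CPM in V4 and 437 ± 64.2 in V6 (SD, n = 4), a log2 change of -0.20 ± 0.14 that did not pass the test (edgeR adjusted p = 0.835). The 14 enterocyte markers together made up 77597 ± 17063 CPM in V4 and 74509 ± 10679 in V6.

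Between the middle and the tip few genes were called, and nearly all of those were higher at the tip. In the edgeR quasi-likelihood test 132 genes were called (1.42% of those tested) at an adjusted p under 0.05, of which 126 rose (1.35%) and 6 fell (0.0643%), with a median change over all genes of 0.0054. Over all 9328 genes, 4739 had a change above 0. At an unadjusted edgeR p under 0.05, 516 were higher and 258 lower. The filter on low counts passed 137 of the 9328 only through V6, and 16 of the 126 were among them. These 16 were tested only because of their V6 counts, which favours a rise, and are included in the counts that follow. Of the 9191 that also passed on V1 to V5 alone, 110 rose and 6 fell. Of the 126, 82 rose at least 2-fold and 38 at least 4-fold, and 1 of the 6 fell at least 2-fold. For 80 of the genes that rose every V6 library lay above every V4 library, which held for 192 genes (2.06%) over the whole table. The 12 largest rises among genes averaging 50 CPM or more were Nts, Pyy, Tph1, Cck, Reg4, Afp, Sct, Chgb, Nt5e, Chga, Myl7 and Marcksl1, of which 7 belong to the enteroendocrine list (Nts, Pyy, Tph1, Cck, Sct, Chgb and Chga). Without mouse in the model 42 genes rose and 0 fell (407 at an unadjusted p under 0.05), and without mouse 1 the numbers were 67 and 10.

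**Figure D1:**
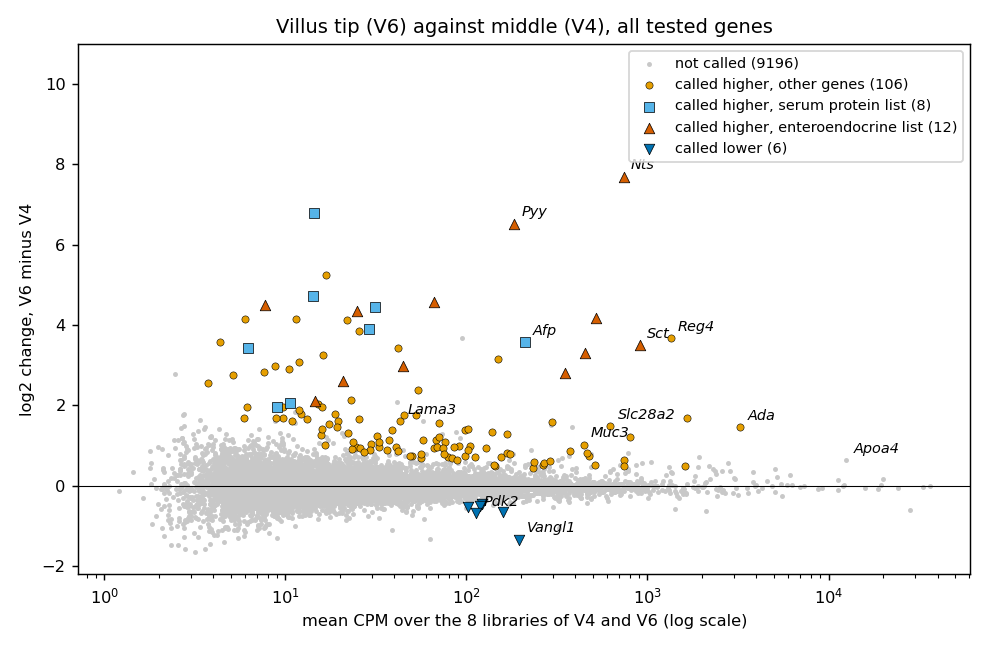
Each point is a gene, with its mean CPM over the 8 libraries on a log axis and its log2 change from V4 to V6 on the vertical axis. Enteroendocrine genes (triangles) and serum protein genes (squares) make up most of the called points above a log2 change of 4, while the 6 genes called lower lie between -0.46 and -1.34.

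Hormone genes of enteroendocrine cells were among the largest rises, and Nts rose most of all tested genes. Neurotensin, Nts, a peptide that slows gut movement and aids fat uptake (chr10:102481756-102490486 on GRCm38), had 8.81, 4.06, 9.03 and 6.81 CPM in V4 of mice 1 to 4 and 1545, 1695, 1257 and 1400 CPM in V6 (log2 change 7.70 ± 0.87, edgeR adjusted p = 6.6e-05). Peptide YY, Pyy, a satiety hormone, had 4.11, 0, 9.03 and 2.72 CPM in V4 and 471, 640, 128 and 212 in V6 (6.53 ± 0.80, adjusted p = 1.5e-04). Neither gene had a V4 library near any V6 library, and Nts varied less between tips than Pyy did. Cholecystokinin, Cck, which empties the gallbladder, had 73.5, 9.75, 40.2 and 114 CPM in V4 and 1058, 1082, 923 and 861 in V6 (4.17 ± 0.69). Secretin, Sct, which calls for pancreatic bicarbonate, went from 158 ± 75.8 to 1659 ± 320 CPM (SD, n = 4; 3.49 ± 0.40). Tac1, the gene of substance P, went from 5.78 ± 3.72 to 35.8 ± 28.3 CPM (2.60 ± 0.36). All 3 had every V6 library above every V4 library. The call of Tac1 was lost without the block, over all libraries and over V4 and V6 alone (highest edgeR adjusted p = 0.302). Fitted to the V4 and V6 libraries alone with mouse as a block, the calls of Pyy (edgeR adjusted p = 0.178), Sct (0.133) and Cck (0.291) were lost, and Cck was also lost without mouse 1 (0.0649) or mouse 2 (0.074).

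Tph1, the enzyme that starts serotonin synthesis in enterochromaffin cells (chr7:46644641-46672537), had 9.40, 6.50, 2.46 and 2.72 CPM in V4 and 197, 158, 77.1 and 79.5 CPM in V6 (4.57 ± 0.30, edgeR adjusted p = 2.4e-12). Mice 1 and 2 had the higher tips. The genes of hormone storage and processing rose as well. The granins Chga and Chgb, which pack hormones into granules, went from 82.1 ± 27.2 to 617 ± 342 CPM (2.81 ± 0.34) and from 81.9 ± 36.3 to 817 ± 409 CPM (3.31 ± 0.40). Another granin, Scg2, had 2.35, 0, 4.11 and 2.72 CPM in V4 and 59.0, 74.8, 25.5 and 31.3 in V6 (4.36 ± 0.52). Pcsk1, a protease that cuts prohormones, went from 5.21 ± 2.98 to 23.8 ± 11.4 CPM (2.10 ± 0.38), and Cpe, which trims the cut peptides, from 9.83 ± 3.52 to 79.5 ± 29.6 (2.97 ± 0.40). Scg5, a chaperone of another convertase, rested on 3 UMIs in all of V4 and 88 in V6. Mouse 1 had the highest V6 library for Tph1, Chga, Chgb, Pcsk1 and Scg5, and mouse 2 for Scg2 and Cpe.

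The enteroendocrine list has 23 members, of which 22 are in the table and 16 had enough counts to be tested. Scg5 passed the filter on low counts only through V6, which favours a rise, so its values are a description. Of the 15 that also passed the filter on V1 to V5 alone, 11 rose and 0 fell, beside 110 and 6 of 9191 over all genes. The other 4 were Ghrl, Gcg, Sst and Gip, which did not pass the test. Ghrelin, Ghrl, had 37.0, 0, 3.28 and 24.5 CPM in V4 and 109, 331, 178 and 76.2 in V6, without overlap (3.67 ± 0.98, edgeR adjusted p = 0.104). Gcg, the gene of the GLP-1 precursor, had 12.9 ± 17.5 and 69.5 ± 65.1 CPM with overlap (adjusted p = 0.602), and somatostatin, Sst, had 6.15 ± 6.31 and 16.6 ± 23.9 CPM (adjusted p = 0.942). Gip, the gene of an insulin-releasing hormone, had 84.0, 52.0, 569 and 214 CPM in V4 and 166, 138, 115 and 103 CPM in V6 (-0.43 ± 0.72, adjusted p = 0.971). Its high value in V4 of mouse 3 sets the sign of this change, since without mouse 3 it was 0.43. In bulk RNA, more cells of a type and more RNA of a gene per cell cannot be told apart. A further 3 genes that rose were chosen after their values were seen, as they are known from neuroendocrine cells. Cartpt, a neuropeptide gene, had 2.35, 0, 0 and 0 CPM in V4 and 51.1, 26.9, 17.0 and 37.1 in V6. It was at no more than 4.16 CPM in any library of V1 to V5. Whether Cartpt passed the filter without V6 was not checked, so its values are a description. Resp18, a granule protein gene, went from 3.17 ± 2.09 to 47.7 ± 20.7 CPM, and Scgn, a calcium sensor gene, from 0.69 ± 0.564 to 11.3 ± 1.84.

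The hormone genes differed in where along the villus they stood before this rise. Gip was at 1329 ± 164 CPM in V1 and 1324 ± 301 in V2, above its levels in both V4 and V6. Sct was at 402 ± 145 CPM in V1 and Cck at 227 ± 153, both above their V4 levels and below their V6 levels. Nts and Tph1 were at 5.39 ± 4.53 and 5.15 ± 1.02 CPM in V1, near their V4 levels. Reg4, a Reg family lectin gene that enteroendocrine cells are also known to express, had 37.1 ± 14.7 CPM in V1. It had 355, 249, 223 and 9.53 CPM in V4 of mice 1 to 4 and 4455, 2800, 1496 and 1143 in V6 (3.68 ± 0.55, edgeR adjusted p = 0.00113). Its call was lost without the block (adjusted p = 0.0947) and with the V4 and V6 libraries alone (0.354 with the block, 0.555 without). The summed enteroendocrine list was 2462 ± 381 CPM in V1, 691 ± 311 in V4, 926 ± 163 in V5 and 6665 ± 1741 in V6 (SD, n = 4). It was higher in V6 than in V4 in 4 of 4 mice (two-sided exact permutation of zones within mice, p = 0.13, the smallest p that 16 swaps allow). Left without Nts, the sum was 684 ± 309 and 5191 ± 1585 CPM.

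**Figure D2:**
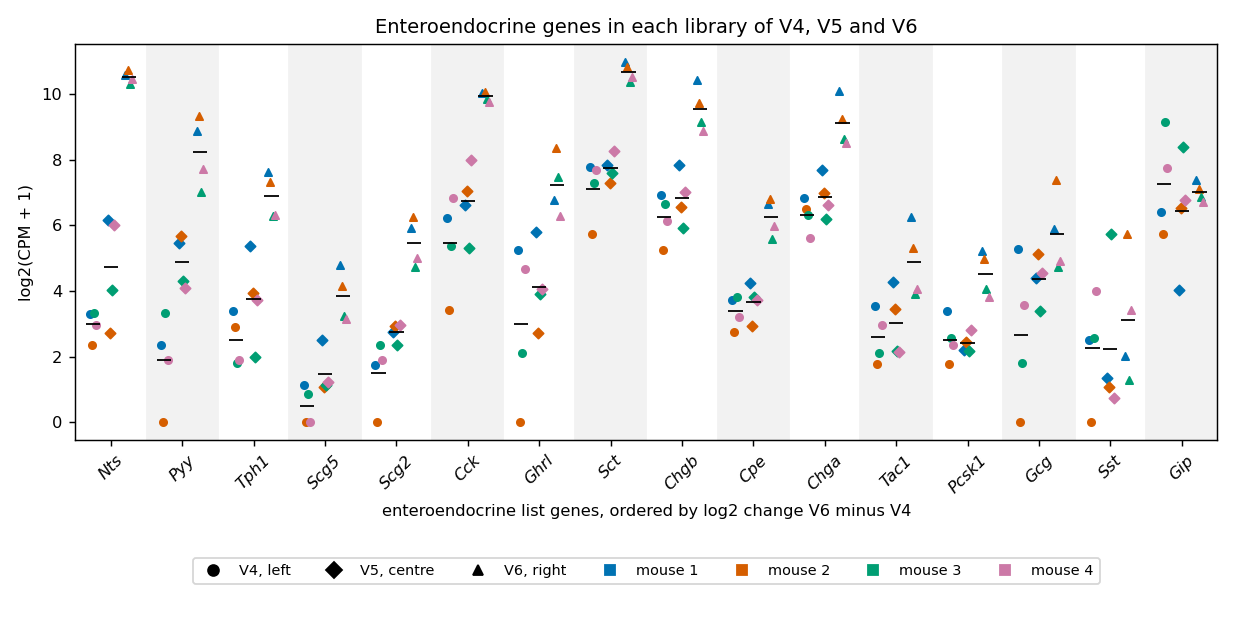
Points are single libraries of V4 (circles), V5 (diamonds) and V6 (triangles) on the log2(CPM + 1) scale, coloured by mouse, with a bar at the mean of each zone. For Nts, Pyy and Sct all 4 tip libraries stand above the V4 and V5 libraries, while Gip and Sst overlap.

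Promoters of the storage and processing genes are shown because these genes moved together, and because the cAMP response element is a known feature of granin promoters. The 250 bases before each RefSeq start on GRCm38.p6 were searched on both strands for its core TGACGT. It was found in 5 of 13 promoters (38.5%) of the enteroendocrine list genes that rose, and in 857 of 8472 promoters (10.1%) of all tested genes with an entry. The list members with a match were Chga, Chgb, Scg2, Pcsk1 and Scg5, the last tested only through V6. The 120 bases next to the start are printed for 4 of them, 5′ to 3′ on the gene's strand, with the cores in capitals. Overlapping cores on both strands make the full palindrome seen in Chgb, Scg2 and Pcsk1. A match describes the letters only.
Chga, chr12:102554821-102554940, plus strand: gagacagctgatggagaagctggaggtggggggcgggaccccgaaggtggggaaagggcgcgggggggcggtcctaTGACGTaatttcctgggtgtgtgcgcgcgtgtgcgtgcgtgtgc
Chgb, chr2:132781522-132781641, plus strand: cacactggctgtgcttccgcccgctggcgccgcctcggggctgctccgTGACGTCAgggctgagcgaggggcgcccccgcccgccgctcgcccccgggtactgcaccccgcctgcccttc
Scg2, chr1:79440027-79440146, minus strand: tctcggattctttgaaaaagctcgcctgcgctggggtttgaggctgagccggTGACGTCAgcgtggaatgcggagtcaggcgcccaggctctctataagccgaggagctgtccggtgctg
Pcsk1, chr13:75089737-75089856, plus strand: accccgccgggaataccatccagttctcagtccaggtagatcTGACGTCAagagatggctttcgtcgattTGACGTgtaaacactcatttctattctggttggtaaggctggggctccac

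The core was in 7 of 102 promoters (6.86%) of the other genes that rose, which gives 12 of 115 (10.4%) over all genes that rose. The GATA motif AGATAA was in 4 of 13 promoters (30.8%) of the enteroendocrine list genes that rose, in 16 of 115 (13.9%) of all that rose and in 516 of 8472 (6.09%) of those tested. The AP-1 motif TGANTCA, bound by Fos and Jun proteins, was in 15 of 115 promoters (13%) of all genes that rose and in 394 of 8472 (4.65%) of those tested. Its matches include the close gene copies Serpina1a, Serpina1b and Serpina1c, and 1 of 13 enteroendocrine promoters (7.69%). The other motifs searched were the E-box CACGTG, in 8 of 115 (6.96%) and 733 of 8472 (8.65%), and TATAAA, in 10 of 115 (8.7%) and 572 of 8472 (6.75%). These shares are descriptions without a test, and alternative starts of 1 gene count separately.

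Genes of proteins that liver and fetal gut secrete into serum formed a second group. The list has 24 members, of which 12 are in the table and 9 were tested. Of the 5 that also passed the filter on low counts on V1 to V5 alone, 4 rose (Afp, Rbp4, Ttr and Serpina1b) and 0 fell. Over all genes these numbers were 110 and 6 of 9191. The other 4, Ambp, Serpina1a, Serpina1c and Serpina1e, passed only through V6, which favours a rise, so their values are a description. Alpha-fetoprotein, Afp, the main serum protein of the fetus, had 21.7, 99.95, 27.1 and 0 CPM in V4 of mice 1 to 4 and 419, 611, 341 and 174 CPM in V6 (3.57 ± 0.49, edgeR adjusted p = 5.0e-04), with no overlap. Its call was lost without the block (adjusted p = 0.0555) and with the V4 and V6 libraries alone (0.239 with the block, 0.598 without). Ambp, the precursor of a protease inhibitor, went from 2.52 ± 2.63 to 60.5 ± 37.2 CPM (4.46 ± 0.43). The carriers of retinol and thyroxine, Rbp4 and Ttr, went from 3.3 ± 3.12 to 54.8 ± 28.6 CPM (3.90 ± 0.52) and from 4.04 ± 1.68 to 17.2 ± 5.73 CPM (2.05 ± 0.31).

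The alpha-1-antitrypsin genes Serpina1a, Serpina1b and Serpina1e had 11.4 ± 7.82, 14.8 ± 7.52 and 27.6 ± 14.4 CPM in V6. In V4 they had 0.964 ± 0.810, 3.28 ± 3.37 and 0.984 ± 0.763 CPM. The call of Serpina1b was lost without the block, without mouse 2 or mouse 4, and without the V4 library of mouse 4. Serpina1c had 0.588 CPM (1 UMI) in V4 of mouse 1, was listed at 0 in the other 3 V4 libraries and had 65.1, 18.5, 15.6 and 16.3 CPM in V6. These copies are nearly identical, and how reads shared among them were counted is not given in the sources used here, so their separate values are uncertain. The member that did not pass was Apoe (1.00 ± 0.46, adjusted p = 0.543). The serum protein genes moved beside the enteroendocrine list and their part in each other was not tested. In V1, where the enteroendocrine sum was 2462 CPM, Rbp4 had 27.3 ± 10.0 CPM, Ttr 13.1 ± 3.06, Serpina1b 14.7 ± 4.14, Serpina1a 4.69 ± 1.65 and Serpina1c 1.45 ± 1.43, all with means above those of V4. Afp had 1.09 ± 1.41 CPM there and Ambp 0.607 ± 0.701, with means below those of V4. Serpina1e (0.893 ± 0.805 CPM) and Apoe (4.32 ± 2.10) lay within 1 SD of their V4 means.

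A pair of purine genes known from villus tip enterocytes rose from the middle to the tip. Adenosine deaminase, Ada, which turns adenosine into inosine (chr2:163726584-163750239), had 1361, 1433, 2363 and 1788 CPM in V4 of mice 1 to 4 and 6383, 3862, 5091 and 3792 CPM in V6 (1.46 ± 0.27, edgeR adjusted p = 0.00584). Slc28a2, a transporter of purine nucleosides, had 229, 223, 521 and 422 CPM in V4 and 1093, 572, 1118 and 811 CPM in V6 (1.48 ± 0.33, adjusted p = 0.0326). Every tip library was above every middle library for both. Of 17 purine genes 3 rose and 0 fell, beside 1.35% and 0.0643% of all tested genes. The 3 include the sort gene Nt5e, which is no finding, so only Ada and Slc28a2 count as rises here. Of the others, the nucleotide phosphodiesterase gene Enpp3 had 421 ± 200 and 558 ± 180 CPM (0.46 ± 0.29, adjusted p = 0.784) and Entpd8, an enzyme that removes phosphates from nucleotides, 154 ± 36.0 and 200 ± 26.5 (0.41 ± 0.14, adjusted p = 0.230). Guanine deaminase, Gda, was lower at the tip in 4 of 4 mice without passing (-0.38 ± 0.13, adjusted p = 0.234). The call of Ada was lost without the block or without mouse 2. That of Slc28a2 was lost without the block, over all libraries or V4 and V6 alone. It was also lost without mouse 2, mouse 3 or the V4 library of mouse 4.

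Of 13 laminin, integrin and hemidesmosome genes 3 rose and 0 fell, beside 1.35% and 0.0643% of all tested genes. A change above 0 was seen in 12, beside 4739 of 9328 over all, and the median was 0.31. Whether the 13 passed the filter on low counts without V6 was not checked. Lama3 and Lamb3, which encode chains of a laminin that anchors epithelium to its basement membrane, were among those that rose. Lama3 had 15.9, 11.4, 40.2 and 21.8 CPM in V4 of mice 1 to 4 and 79.7, 45.4, 87.0 and 43.0 in V6 (1.61 ± 0.21, edgeR adjusted p = 4.3e-06). Lamb3 had 21.2, 20.3, 20.5 and 14.98 CPM in V4 and 59.6, 37.0, 44.6 and 37.8 in V6 (1.24 ± 0.24). The tip libraries of both stood above the middle ones. Both calls were lost without the block, and that of Lama3 also with the V4 and V6 libraries alone and no block. The integrin pair that binds this laminin did not pass the test, with 73.3 ± 16.6 and 72.8 ± 25.03 CPM for Itga6 (adjusted p = 0.998) and 71.4 ± 25.6 and 79.6 ± 6.80 for Itgb4 (adjusted p = 0.850). Plec, which ties that integrin to keratins, had 235 ± 21.3 and 295 ± 80.9 CPM (adjusted p = 0.522). From V5 to V6, 5 of the 13 rose and 0 fell, beside 1.47% and 0.0322% of all tested genes. Plec was among them (0.57 ± 0.14, edgeR adjusted p = 0.0224).

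No cell junction gene was called from V4 to V6. Of 27 tested, 0 rose and 0 fell in edgeR, and the median was 0.27. A change above 0 was seen in 23, beside 4739 of 9328 over all tested genes. Every V6 library lay above every V4 library in 4, beside 192 (2.06%) over all tested genes. Claudin 4, Cldn4, a tight junction gene, had 204, 219, 239 and 158 CPM in V4 and 900, 420, 506 and 414 in V6 (1.45 ± 0.39, adjusted p = 0.113). The desmosome gene Dsc2 had 87.4 ± 23.4 and 124 ± 14.9 CPM (0.53 ± 0.15, adjusted p = 0.0544). Cldn23 changed by 0.79 ± 0.23 (adjusted p = 0.0976) and the adhesion gene Epcam, the most abundant of the list, by 0.37 ± 0.12 (adjusted p = 0.199). In the step from V5 to V6, 3 of the 27 rose and 0 fell, beside 1.47% and 0.0322% of all tested genes. Dsc2 was among them (0.53 ± 0.14, edgeR adjusted p = 0.0488).

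In the signalling list, 1 of 22 genes rose, beside 1.35% of all tested genes. Egfr, the receptor of epidermal growth factor, had 8.23, 10.6, 18.9 and 16.3 CPM in V4 of mice 1 to 4 and 43.2, 23.5, 33.2 and 22.8 CPM in V6, without overlap (1.31 ± 0.28, edgeR adjusted p = 0.00665). Its ligand gene Hbegf had 76.7 ± 30.4 and 120 ± 68.5 CPM (0.59 ± 0.30, adjusted p = 0.658). Outside the lists, 3 genes of the BMP and TGF-beta pathways were chosen after their values were seen. The ligand genes Bmp8a and Bmp8b went from 36.1 ± 20.001 to 79.2 ± 39.1 CPM (1.13 ± 0.27) and from 4.79 ± 1.11 to 14.7 ± 7.52 CPM (1.68 ± 0.41), and Pmepa1, an inhibitor that TGF-beta switches on, from 84.6 ± 22.5 to 139 ± 31.2 CPM (0.72 ± 0.16). Bmp8b was at no more than 8.83 CPM in any library of V1 to V5. Whether Bmp8b passed the filter without V6 was not checked, so its values are a description.

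Of 22 immediate early genes, which cells switch on within minutes of a stimulus, 4 rose and 0 fell, beside 1.35% and 0.0643% of all tested genes. A change above 0 was seen in 18, beside 4739 of 9328 over all, and the median was 0.35. Dusp1, a phosphatase that turns off MAP kinases, had 11.8, 6.50, 14.0 and 5.45 CPM in V4 and 50.5, 37.0, 19.8 and 11.7 in V6 (1.62 ± 0.33, edgeR adjusted p = 0.00267). The groups overlap, yet each mouse was higher at its own tip. The growth brake Btg2 went from 48.0 ± 17.5 to 105 ± 59.5 CPM (1.08 ± 0.24), the AP-1 gene Fosb from 9.34 ± 5.61 to 22.1 ± 14.4 (1.26 ± 0.31) and the survival gene Mcl1 from 118 ± 26.1 to 165 ± 29.4 (0.51 ± 0.13). The more abundant AP-1 genes did not pass, with changes of 0.77 ± 0.27 for Jun (adjusted p = 0.327), 0.33 ± 0.25 for Fos (adjusted p = 0.859) and 0.38 ± 0.13 for Junb (adjusted p = 0.234). Mouse 1 had the highest V6 library for all of these 7 genes. Without mouse 1 the calls of Egfr, Dusp1, Btg2, Fosb and Mcl1 were lost, as were those of Bmp8a, Bmp8b and Pmepa1. All of these calls were also lost without the block.

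**Figure D3:**
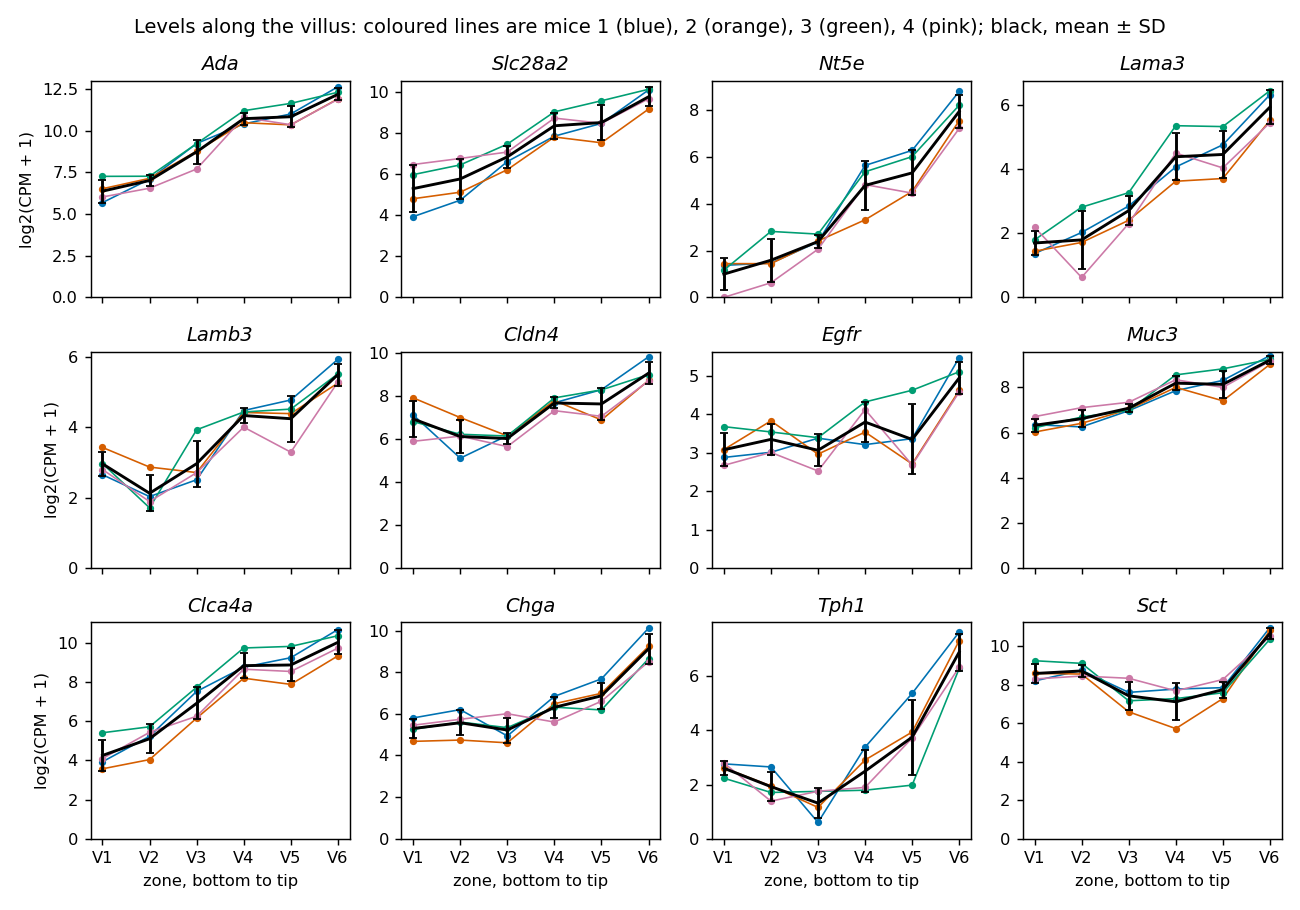
Levels of 12 genes on the log2(CPM + 1) scale from zone V1 to V6, with a coloured line per mouse and the mean ± SD of 4 mice in black. Ada, Slc28a2, Lama3 and Clca4a are higher in V4 than in V1 and V2 and higher again in V6, whereas Chga, Tph1 and Sct have their highest level in V6 without a climb from V1 to V4 in Tph1 and Sct.

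At the apical surface, Muc3, a membrane mucin of the glycocalyx, had 231, 255, 375 and 323 CPM in V4 of mice 1 to 4 and 680, 518, 605 and 571 in V6 (1.03 ± 0.18, edgeR adjusted p = 0.00169), with no overlap. Duoxa2, the maturation factor of the hydrogen peroxide source DUOX2, went from 121 ± 89.4 to 188 ± 133 CPM (0.71 ± 0.16), higher in 4 of 4 mice though the mice differed far more than the zones. Clca4a, a CLCA family gene with close copies, went from 493 ± 245 to 1106 ± 447 CPM (1.21 ± 0.20). Of 22 antimicrobial and mucosal barrier genes, 3 rose (Reg4, Muc3 and Duoxa2) and 0 fell, beside 1.35% and 0.0643% of all tested genes. Of 27 microvillus and cytoskeleton genes, 2 rose and 0 fell, beside the same 1.35% and 0.0643%. These were the keratin gene Krt18, from 220 ± 52.8 to 317 ± 58.7 CPM (0.56 ± 0.14), and Eps8l3, an actin regulator gene, from 416 ± 54.98 to 615 ± 185 CPM (0.53 ± 0.13). Both calls were lost without mouse 1, mouse 3, mouse 4 or the block. The call of Muc3 was lost without mouse 1, that of Clca4a without mouse 2 or the block, and that of Duoxa2 without mouse 1, mouse 2, mouse 4 or the block.

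Genes of nutrient absorption, the main work of the enterocyte, were not called in either direction from V4 to V6. Of 28 genes of lipid absorption, 0 passed in edgeR and the median was -0.010, and the chylomicron gene Apoa4 had 10030 ± 3973 CPM in V4 and 14966 ± 3011 in V6 (0.64 ± 0.17, adjusted p = 0.0540, higher in 4 of 4 mice). Apob, which forms the shell of the same particle, changed by 0.64 ± 0.24 (adjusted p = 0.361). From V5 to V6, 1 of the 28 rose and 0 fell, beside 1.47% and 0.0322% of all tested genes. It was Apoa4 (0.81 ± 0.17, edgeR adjusted p = 0.0082). Of 16 genes of sugar transport and metabolism, 0 passed, 1 was above 0 (4739 of 9328 over all tested genes) and the median was -0.22. Slc5a1, the sodium-glucose cotransporter, had 1753 ± 285 and 1526 ± 308 CPM and was lower at the tip in 4 of 4 mice (-0.19 ± 0.18, adjusted p = 0.923), and Slc2a7, a hexose transporter gene, changed by -0.72 (adjusted p = 0.755).

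Amino acid and peptide transporter genes had 3 of 15 above 0 (4739 of 9328 over all tested genes), a median of -0.19 and 0 calls. Among them Slc43a2 changed by -0.37 ± 0.15 (edgeR adjusted p = 0.390) and the peptide transporter gene Slc15a1 by -0.37 ± 0.17 (adjusted p = 0.581). Brush-border hydrolases had 2 of 16 above 0, beside the same 4739 of 9328, a median of -0.15 and 0 calls. Angiotensin-converting enzyme, Ace, had 266, 293, 455 and 418 CPM in V4 of mice 1 to 4 and 231, 283, 278 and 179 CPM in V6 (-0.54 ± 0.15, adjusted p = 0.0540). Aminopeptidase N, Anpep, had 2853, 1751, 4039 and 1656 CPM in V4 and 2316, 1167, 1482 and 1546 in V6 (-0.64 ± 0.22, adjusted p = 0.266). Both were lower at the tip in 4 of 4 mice, with overlap between the zones.

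From the middle to the tip 6 genes fell, 5 of them by less than 2-fold. Pdk2, a kinase that restrains pyruvate oxidation (chr11:95026258-95041354), had 162, 144, 155 and 96.7 CPM in V4 of mice 1 to 4 and 116, 73.1, 67.2 and 91.9 CPM in V6 (-0.69 ± 0.15, edgeR adjusted p = 0.00584). Aspa, which splits N-acetylaspartate, had 166, 182, 184 and 249 CPM in V4 and 139, 129, 99.0 and 121 in V6 (-0.66 ± 0.14, adjusted p = 0.00668). Aspa was without overlap, while mouse 4 had Pdk2 nearly level. The lipid transfer gene Stard10 went from 141 ± 7.67 to 98.8 ± 18.2 CPM (-0.51 ± 0.14, adjusted p = 0.0402) without overlap. Nudt5, which cleaves ADP-ribose, went from 142 ± 35.7 to 102 ± 24.03 CPM (-0.46 ± 0.11), and H2-DMa, which helps load MHC class II, from 121 ± 29.3 to 82.7 ± 14.0 CPM (-0.53 ± 0.13).

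These 5 were lower at the tip in 4 of 4 mice. The sixth, Vangl1, was at 1119 CPM in V4 and 440 in V6 of mouse 3 and at no more than 4.11 CPM in the other 6 libraries. Its change (-1.34 ± 0.31, adjusted p = 0.0204) therefore rests on mouse 3. H2-DMa was the 1 of 9 MHC class II genes that fell (0.0643% of all tested genes did), beside a median of -0.30. Without mouse 3, 0 genes fell, and without mouse 4, 3 did. The calls of Stard10, Nudt5 and H2-DMa were lost in 7 or more of the 17 alternatives.

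**Figure D4:**
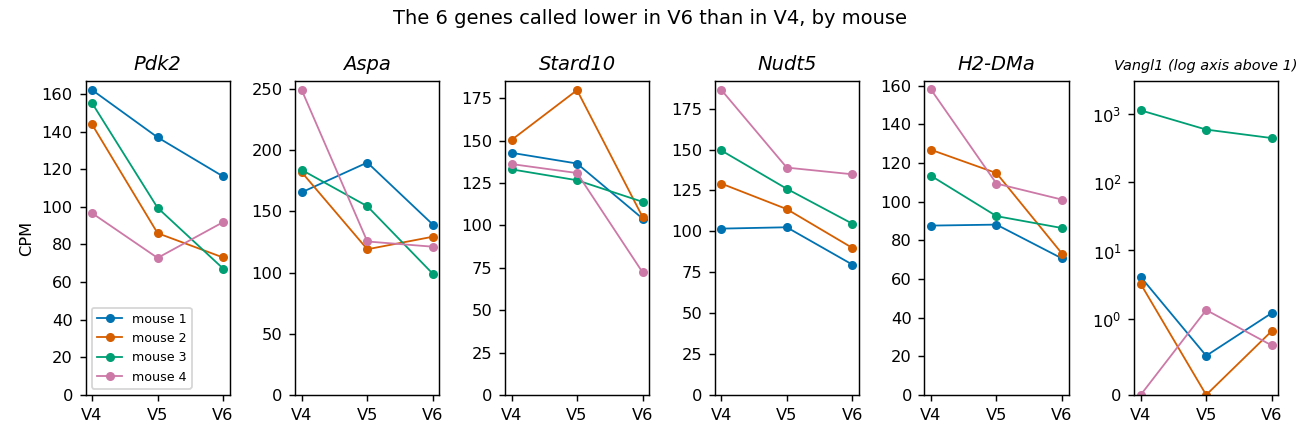
CPM of the 6 genes that fell, in V4, V5 and V6 of each mouse, on linear axes from 0 except Vangl1, whose axis is logarithmic above 1. The lines of Pdk2, Aspa, Stard10, Nudt5 and H2-DMa end lower in V6 than they start in V4 for all 4 mice, and Vangl1 stands high in mouse 3 alone.

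From V4 to V5 edgeR called 0 genes, with 512 at an unadjusted p under 0.05, and DESeq2 and limma-voom called 0 as well. With V4 and V5 libraries alone it called 5, and without the filter on low counts 59. From V5 to V6, 140 genes were called (1.5%), of which 137 rose (1.47%) and 3 fell (0.0322%). Of the enteroendocrine list 12 of 16 rose in this step, Scg5, which was tested only through V6, among them. Nts had 38.9 ± 33.2 CPM in V5, Chga 124 ± 57.4, Ada 1974 ± 894 and Lama3 23.3 ± 12.3, all nearer their V4 than their V6 levels. Of the genes that fell from V4 to V6, Pdk2 changed by -0.52 from V4 to V5 and by -0.17 from V5 to V6 (edgeR adjusted p = 0.78), and Aspa by -0.37 and -0.29 (adjusted p = 0.497). H2-DMa and Nudt5 did not pass from V5 to V6 either (adjusted p = 0.394 and 0.392), while Stard10 did (-0.53, adjusted p = 0.0271). Paneth cell markers summed to 25833 ± 20347 CPM in V5, against 11918 in V4 and 10623 in V6, and V5 of mouse 2 had 48230 CPM of them and 88.2 CPM of stromal and blood markers. Their part in the steps was not tested. Without mouse 2 of V5 the last step had 71 calls, and without mouse 1, 2 or 4 in all zones 55, 83 or 65.

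The upper steps differed from the 2 steps below, V2 to V4, for 404 genes (4.33%) in edgeR: 141 had the more positive change above V4 (1.51%) and 263 the more negative (2.82%). In the same fit 2350 genes (25.2%) were called from V2 to V4, 1261 higher (13.5%) and 1089 lower (11.7%), and 4703 (50.4%) from V1 to V4, 2391 higher (25.6%) and 2312 lower (24.8%). Without mouse 1, 3 or 4 the number was 640, 114 or 144, and without the V4 library of mouse 4 it was 209. Both comparisons share the V4 libraries, so a V4 library that stands off moves them in opposite directions. Among the 6 genes with the smallest adjusted p that went up below V4 and down above it, the upper change was mostly small. The amino acid transporter gene Slc6a19 had 92.9 ± 8.99 CPM in V2, 345 ± 37.8 in V4 and 300 ± 52.2 in V6 (SD, n = 4), changes of 1.89 and -0.20 that differed by -2.09 ± 0.23 (adjusted p = 3.7e-07). The lower and upper changes were 2.21 and -0.08 for the drug-metabolising Cyp3a11, 1.41 and -0.15 for the microvillus bundler Espn, 1.498 and -0.23 for trehalase, Treh, and 1.07 and -0.43 for Sectm1b. Aspa, with 1.19 and -0.66, was the 1 of the 6 that also fell from V4 to V6.

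A further 6 genes had a negative change below V4 and a positive one above it. Myl7, a myosin light chain gene, had 54.5 ± 1.94 CPM in V2, 17.1 ± 1.56 in V4 and 91.4 ± 27.97 in V6, changes of -1.65 and 2.38 that differed by 4.03 ± 0.37 (edgeR adjusted p = 5.1e-09). The keratin gene Krt7 had 110 ± 15.5, 54.0 ± 15.98 and 144 ± 54.5 CPM, with changes of -1.04 and 1.39. The changes were -1.04 and 0.56 for Krt18, -1.52 and 3.49 for Sct, -3.07 and 6.53 for Pyy and -1.03 and 0.30 for the lectin gene Lgals2, which did not pass from V4 to V6 (adjusted p = 0.509). Scaling by total UMIs alone moved the split from 141 against 263 to 348 against 175, since it shifted the median of this difference over all genes to 0.225.

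**Figure D5:**
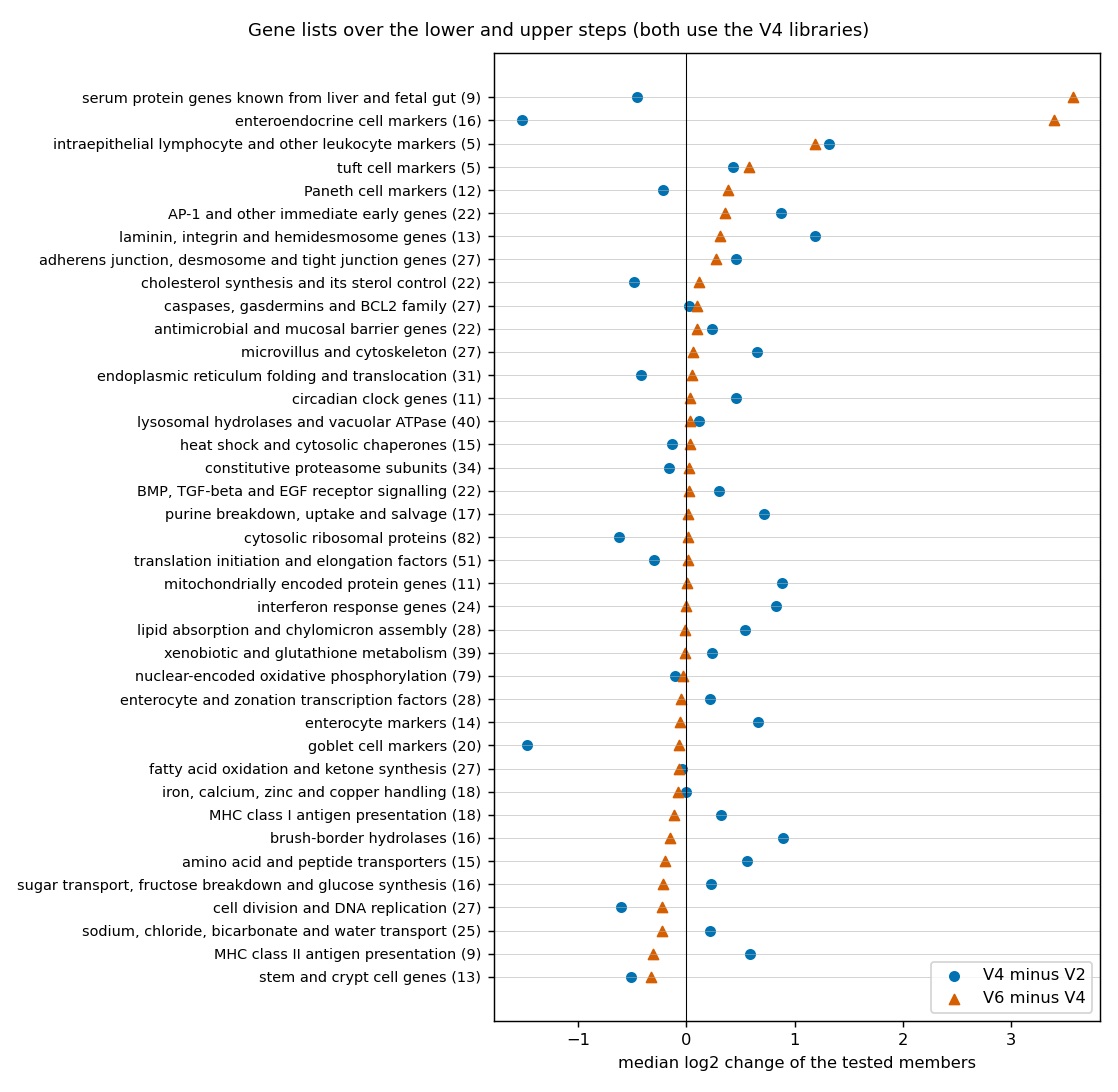
Median log2 change of the tested members of each gene list (number in brackets) from V2 to V4 (circles) and from V4 to V6 (triangles). The serum protein and enteroendocrine lists stand at 3.57 and 3.4 from V4 to V6, with 4 and 1 members that were tested only because of their V6 counts, and the others lie within 0.5 of 0 there except the leukocyte list at 1.19 and the tuft cell list at 0.581. Members of the other lists were not checked for the filter without V6.

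Among transcription factors known to act in enterocytes or along the villus, 0 of 28 passed in edgeR. Prdm1, a repressor, had 10.0 ± 4.72 CPM in V4 and 20.7 ± 10.9 in V6 (1.06 ± 0.32, adjusted p = 0.119, higher in 4 of 4 mice), and Maf had 436 ± 225 and 214 ± 73.8 CPM (-1.05 ± 0.29, adjusted p = 0.121, lower in 3 of 4). Creb3l3, an activator of apolipoprotein genes, changed by 0.30 ± 0.13 (adjusted p = 0.509). Of the 79 nuclear genes of oxidative phosphorylation 1 rose and 0 fell, beside 1.35% and 0.0643% of all tested genes. It was Cox6b2, a form of a cytochrome oxidase subunit known from testis, from 15.4 ± 2.69 to 32.0 ± 7.78 CPM (1.08 ± 0.23). The call of Cox6b2 was lost without the block, without mouse 1 and in counts thinned to the smallest library. No gene was called in the lists of cytosolic ribosomal proteins (82 tested, median 0.019), translation factors (51), proteasome subunits (34), endoplasmic reticulum folding (31), lysosome (40), cytosolic chaperones (15), fatty acid oxidation (27), cholesterol synthesis (22), xenobiotic metabolism (39), metal handling (18), cell death (27), MHC class I (18), interferon response (24), clock (11), mitochondrially encoded proteins (11), cell division (27) or stem and crypt genes (13). The survival gene Mcl1, of the BCL2 family, rose but was counted with the immediate early genes and not in the cell death list. Clca4a was the 1 of 25 ion and water transport genes that rose (1.35% of all tested genes did), with a median of -0.22.

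Markers of the remaining cell types gave no calls from V4 to V6. The goblet cell list summed to 12679 ± 1436 CPM in V4 and 12343 ± 2912 in V6 with 0 of 20 called, and the Paneth cell list to 11918 ± 10996 and 10623 ± 4624 CPM with 0 of 12 called. Leukocyte markers summed to 218 ± 114 CPM (110 to 363) in V4 and 414 ± 66.1 (361 to 505) in V6, higher in 4 of 4 mice (exact permutation p = 0.13). Only 5 of their 26 genes in the table passed the filter and 0 were called. All 5 were above 0 (4739 of 9328 over all tested genes). Gzma, Ccl5 and Cd7 had every V6 library above every V4 library (2.06% over all). Whether these 5 passed the filter without V6 was not checked. Cd7 was at no more than 10.6 CPM in any library of V1 to V5. It may have been tested only through V6, so its values are a description. The granzyme gene Gzma had 27.6 ± 16.9 and 87.8 ± 17.4 CPM (1.61 ± 0.56, edgeR adjusted p = 0.314), the chemokine gene Ccl5 57.4 ± 26.8 and 128 ± 10.7, and Cd7 4.36 ± 2.77 and 13.1 ± 4.39. Tuft cell markers summed to 50.2 ± 18.0 and 59.5 ± 22.99 CPM, with 0 of 5 called. Stromal and blood markers were at 9.36 ± 4.87 and 19.2 ± 15.2 CPM in sum, with Dcn at 0 in all 8 libraries. Mitochondrially encoded genes, taken as those with the mt- prefix, took 9.45% ± 2.87 and 8.10% ± 1.21 of the UMIs. Reads assigned to copies under other names are not in these shares.

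The leukocyte and enteroendocrine sums both moved with the tip, and their part in the other changes was not tested. Lama3 and Ada had 2.33 ± 0.911 and 89.6 ± 45.3 CPM in V1, where the enteroendocrine sum was 2462 CPM, and 22.3 ± 12.7 and 1737 ± 458 CPM in V4, where it was 691 CPM. With the mean log2 level of the enteroendocrine list added to the model, an alternative chosen after seeing the data, edgeR called 0 genes (402 at an unadjusted p under 0.05). Zone and mouse explain 87.3% of that score, and the standard errors grew with it: the change of Ada was 1.54 ± 0.72, that of Lama3 0.87 ± 0.67 and that of Nts 2.10 ± 1.76. Nts is itself a member of the list behind the score, so its change with the score is a description.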

How the data were processed

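The authors deposited raw UMI counts per gene for 24 libraries, 1 per zone and mouse, made by mcSCRB-seq. Per the submitters' processing notes, bcl2fastq 2.15.0.4 and the build GRCm38 were used. The aligner and the treatment of reads shared by gene copies were not given in the sources used here. Of 17811 identifiers, 131 had no count. The filter on low counts (edgeR filterByExpr by zone, minimum count 10, minimum total 15) kept 9328. All 24 libraries entered 1 edgeR 4.0.16 quasi-likelihood fit in R 4.3.3 with TMM scaling, zone means and a term for mouse, with 15 residual degrees of freedom, and p-values were Benjamini-Hochberg adjusted over all 9328 genes.

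The labels number the mice, and libraries with the same number come from the same mouse. The deviations of V4 and V6 from their zone means correlated within each mouse (lowest r 0.184, mean 0.348) and averaged -0.116 between mice. Libraries of 1 zone differed by more than counting noise, with 7.45 to 27.3 for chi-square over its degrees of freedom. On simulated counts of 9169 genes for V6 against V4, the fit called 58.6% of 99 genes changed by a log2 of 1, 97% of 100 changed by 2, and 6 unchanged genes.

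The text names the 12 largest rises and up to 12 falls among called genes of at least 50 CPM with the same direction in 4 mice, the members of each list with the smallest adjusted p, and 6 genes per direction that turn at V4. In lists without calls members are given mostly by counts, and genes outside this rule are said to be chosen after their values were seen, or serve as the partners of a named gene. Members and lists were chosen with earlier results of these data known. Promoters are RefSeq's on GRCm38.p6. Alternatives included DESeq2 1.42.0, limma-voom 3.58.1, other scalings, filters and library sets, and leaving out each mouse. Which genes passed the filter on low counts without the V6 libraries was checked by applying filterByExpr to V1 to V5 alone, a check chosen after seeing the data. The outcome was counted over all tested genes, with members named for the enteroendocrine and serum lists only. A result for 1 gene is not reported here.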

Additional observations from a re-analysis of the deposited data

Results flagged for a closer look

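In 11 of 184 groups of 4 libraries (92 named genes in V4 and in V6), the lowest or highest library stood apart from the other 3 by more than 0.83 of the group's range, which chance gives in about 1 in 20 groups. For genes the gap and the range were taken on the log2(CPM + 1) scale, and levels are given in CPM. In V4, mouse 4 stood low for Apoe at 0 CPM (gap 0.923 of the range), for Lamb3 at 14.98 (0.882) and for Reg4 at 9.53 (0.869). Mouse 2 stood low for Itga6 in V4 at 48.8 CPM (0.874) and in V6 at 36.1 (0.854), for Prdm1 in V6 at 5.04 (0.848) and for Sectm1b in V6 at 286 (0.84). Mouse 1 was the only V4 library with counts of Cartpt, at 2.35 CPM (1), and of Serpina1c, at 0.588 (1), and stood high for Serpina1c in V6 at 65.1 (0.883). Vangl1 in V6 stood high in mouse 3 (0.947). The summed stromal and blood markers in V6 stood high in mouse 1 at 42.0 CPM (0.942, taken on the CPM scale), beside 10.9 to 12.7 in the others.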

How the results depend on the processing

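Without the replicate block 42 genes rose and 0 fell from V4 to V6, 25 were called from V5 to V6 and 29 in the comparison of the upper with the lower steps. With only the libraries compared and no replicate block the numbers were 37, 0, 10 and 27, and with the replicate block 3 fell and 5 were called from V4 to V5. With no filter 239 rose and 25 fell, 59 were called from V4 to V5 and 318 from V5 to V6, and at a mean of at least 50 CPM 53 rose and 53 were called from V5 to V6. Leaving out each mouse gave 67 to 105 higher, 0 to 12 lower, 55 to 132 from V5 to V6 and 114 to 640 between upper and lower steps. Without the V5 library of mouse 2 129 rose and the last step had 71 calls, and without the V4 library of mouse 4 upper against lower steps had 209 and the last step 146; both were chosen after seeing the data. With the enteroendocrine score in the model 0 genes rose, 0 fell, 0 were called from V5 to V6 and 0 between upper and lower steps. The cause was not tested.

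Of 52 named genes called from V4 to V6, 19 kept their call in every alternative run but the score, 9 lost it in 1 or 2, and 24 in 3 or more. The block changed the call of 27. With the score the log2 change turned for Gcg (-2.27), Sst (-3.27), Ghrl (-2.68), Pcsk1 (-1.03), Apob (-0.048), Itgb4 (-0.10), Gzma (-0.32), Cd7 (-0.63), Ccl5 (-0.78), Itga6 (0.094), Espn (0.068) and Vangl1 (1.07). Gcg, Sst, Ghrl and Pcsk1 are members of the list whose mean is the score, so their turn with it is a description. Sst also turned with limma-voom (-0.51). Leaving out a mouse gave Sst -0.55 (mouse 2) to 2.87, Gip -0.95 to 0.43 (mouse 3), Itgb4 -0.053 (mouse 1) to 0.43, Itga6 -0.12 to 0.0285 (mouse 2) and Cyp3a11 -0.23 to 0.065 (0.034 without mouse 3, 0.065 without mouse 4). Itga6 also turned in thinned counts (0.023), and Cyp3a11 without the V4 library of mouse 4 (0.074). Of simulated 2-fold changes, 58.6% were called.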
